A study of Rattus norvegicus with 9 samples.

Results

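Hippocampal poly(A) RNA of male rats was sequenced in 3 groups. The comparison described here sets 3 libraries of stroke rats treated with taVNS (transcutaneous auricular vagus nerve stimulation) against 3 of control rats, 6 of the 9 libraries of the study. The 6 were chosen by their labelled group, and all 18733 genes of the deposited tables were considered. Control rats received regular feeding and no other treatment is given for them. The taVNS rats were impaired after MCAO, the occlusion of the middle cerebral artery that models ischaemic stroke, and had 14 days of stimulation of the skin of the ear, where a branch of the vagus nerve runs. The third group, called PSCI for post-stroke cognitive impairment, had the same occlusion and regular feeding for 2 weeks. Stroke rats entered the study when 2 behavioural scores, spontaneous alternation and a cognitive index, fell under a limit worded as 20% of the control mean, and they were then divided at random. The labels give no strain or age, no sham operation or sham stimulation, and no side of the brain. The taVNS rats therefore differ from control by occlusion, impairment and stimulation at once, and these cannot be told apart in this comparison. The question asked is which differences between stroke and control hippocampus remain after stimulation, with the PSCI libraries shown beside the others.

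Several groups of genes are known to respond to stroke in the hippocampus. Immediate early genes such as Fos, Arc and the Egr family are switched on within minutes of synaptic activity and encode transcription factors and synaptic proteins, so their RNA level follows recent neuronal firing. Microglia, the resident immune cells, respond to injury by raising complement proteins, which tag synapses and debris, and the major histocompatibility complex (MHC) molecules that present antigen, while astrocytes raise the filament proteins GFAP and vimentin. In bulk tissue a lower level can mean fewer cells of a type or less RNA per cell, and the 2 cannot be told apart.

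The 6 libraries held 13747389 to 14947356 counts, and levels are given as CPM, the count of a gene scaled by its library's total. With 3 counts as the limit that a count of 0 allows, the floor lay between 0.201 and 0.218 CPM and covers counting error only. TMM scaling was applied to these levels. The median gene had a standard deviation (SD) of 0.167 in control and 0.149 in taVNS on the log2 scale. Markers of hippocampal neurons were present at like levels in both groups: the summed level of 12 excitatory neuron genes was 7267 to 9585 CPM in control and 6746 to 10182 CPM in taVNS. 2 libraries stood apart. The 14 markers of meninges and fibroblasts, tissue that covers the brain, summed to 97.9, 103.5 and 114.6 CPM in control and 79.7, 111.3 and 532 CPM in taVNS, the last in replicate 3. Of the PSCI libraries, replicate 2 was at 439 CPM in the same markers, beside 133.6 and 171.7 CPM in the others, and it was the lowest in excitatory neuron genes (3957 CPM, beside 9959 and 8128) and in 14 myelin genes (6526 CPM, beside 15915 and 16742). The part of these differences in the results below was not tested. The median fold change of each list that leads below is also given from a fit without taVNS replicate 3.

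No gene passed the test between taVNS and control. With edgeR's quasi-likelihood test, 0 of 14451 genes had an adjusted p under 0.05 (0%), and the smallest adjusted p was 0.128. At an unadjusted p under 0.05 there were 768 genes, 5.31% of those tested, of which 433 (3%) were higher and 335 (2.32%) lower in taVNS. The typical difference was small, with a median absolute log2 fold change of 0.111, and 183 genes had an estimate of at least 2-fold. Limma-voom also called 0 genes, whereas DESeq2 called 42, 23 higher and 19 lower. Limma on the deposited RPKM called 0. The log2 ratio of mean RPKM was taken with 0.1 added to both means, which pulls it towards 0 where RPKM is low. For 5 genes described below, picked after their values were seen, it was -2.06 for Fos, -1.87 for Egr2, 1.77 for Cd74, 2.28 for C3 and -0.96 for Sgk1. Lilrb3, a low-count gene, was at 2.53 by counts and 1.28 by this RPKM ratio. Its RPKM was 0.04, 0.06 and 0.04 in control and 0.31, 0.25 and 0.21 in taVNS. The added 0.1 weighs heavily there, so the gap is not read as a disagreement of the deposited values. In the fit of all 9 libraries, by contrast, 1144 of 14840 genes (7.71%) rose and 317 (2.14%) fell in PSCI against control, and 125 (0.842%) rose and 729 (4.91%) fell in taVNS against PSCI. With each pair of groups fitted alone, 693 rose in PSCI against control, and 25 rose and 225 fell in taVNS against PSCI. These comparisons share libraries, the control libraries with the first and the taVNS libraries with the second, so their values stand side by side and none is independent support for another.

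Because no gene passed, the lists are described by how many members had their 3 taVNS libraries all above, or all below, the 3 control libraries. Over all genes tested, 808 (5.59%) were all above and 793 (5.49%) all below. These shares are the background for every count of separated members that follows. For members called in the fit of 9 libraries, the background is 7.71% rising and 2.14% falling in PSCI against control. In taVNS against PSCI it is 0.842% rising and 4.91% falling. With each pair fitted alone, it is 693 of 14647 genes rising in PSCI against control. For taVNS against PSCI fitted alone, it is 25 rising and 225 falling of 14710. A member tested in the fit of 9 but not of 6 passed the count filter with counts from PSCI. Its calls are therefore partly set by that filter. Such members enter the tallies of cell division (18 tested in the fit of 9, 15 in that of 6) and cytokines (17 and 13). They also enter those of phagocytic microglia (15 and 13) and reactive astrocytes (19 and 17), among others. In RPKM, where the scaling differs, 1018 genes were all above and 505 all below, and the counts of the leading lists were 11 below for immediate early genes, 13 above for interferon and antigen presentation, 10 for microglia and 5 for complement. Genes named from a list beyond those set by the naming rule were picked after their values had been seen.

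**Figure D1:**
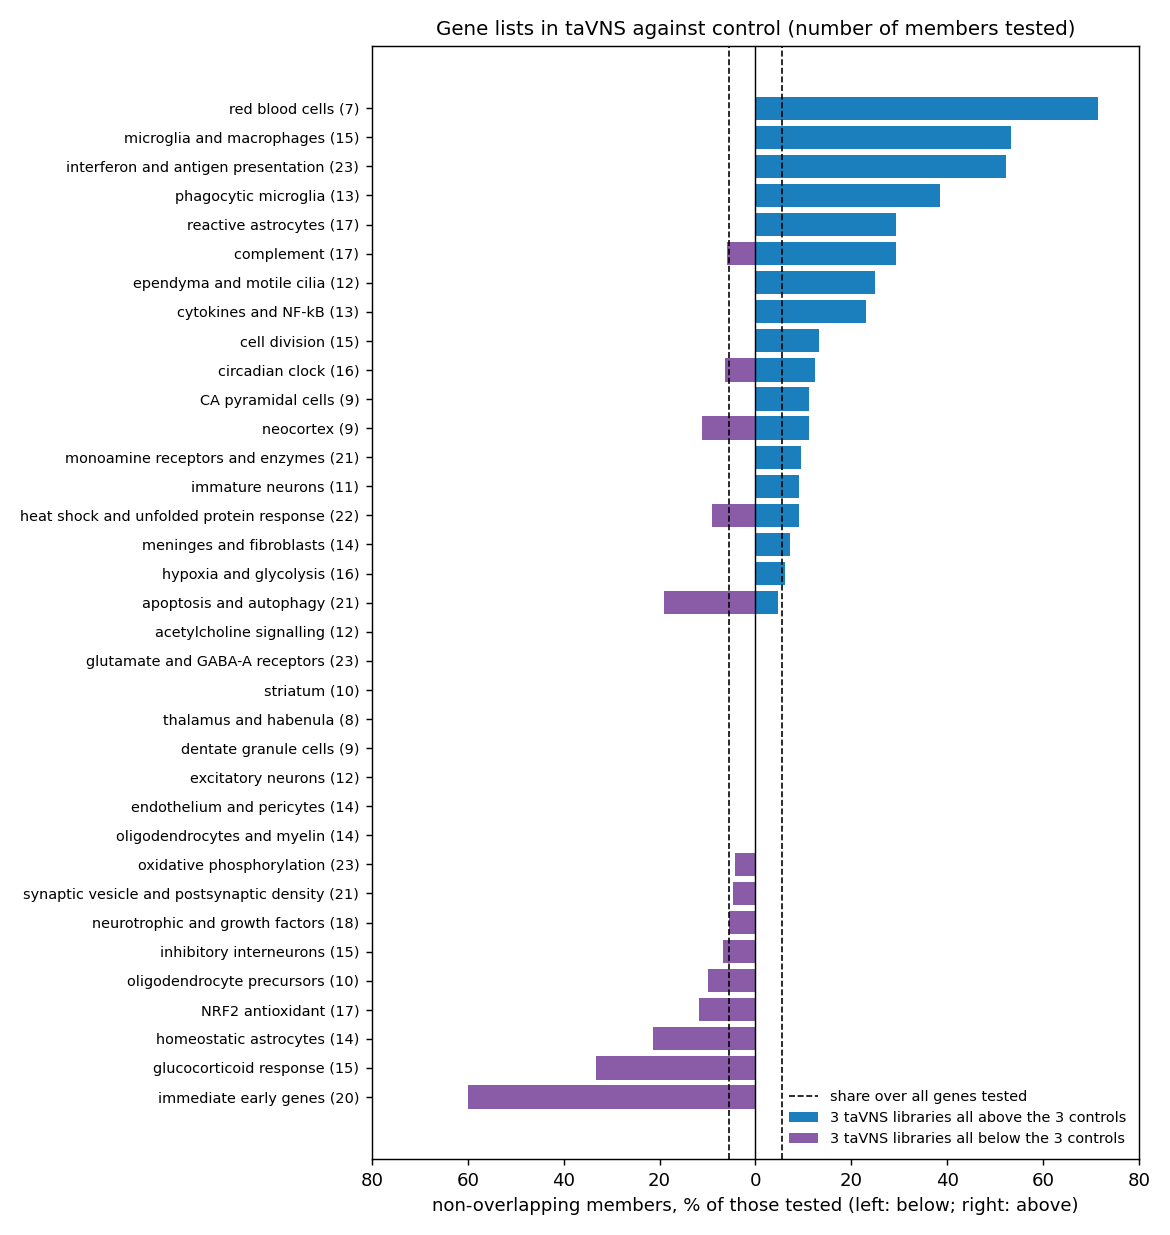
Share of tested members, in percent, whose 3 taVNS libraries lay all above (blue, to the right) or all below (purple, to the left) the 3 control libraries, for each list with at least 7 members tested (number in brackets). Dashed lines mark the shares over all genes tested, 5.59% above and 5.49% below; immediate early genes extend farthest to the left, with 12 of 20.

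The immediate early genes were lower in taVNS. Of 20 members, all tested, 12 had their taVNS libraries all below control and 0 all above, beside 5.49% of all genes below, 13 had an unadjusted p under 0.05, and the median log2 fold change was -0.87 (-0.71 without taVNS replicate 3), beside 0 over all genes. None passed the adjusted test in edgeR, whose smallest adjusted p in the list was 0.301, while DESeq2 called 9. The summed level of the list was 986, 889.6 and 894 CPM in control and 627, 681 and 629 CPM in taVNS, with no overlap. In PSCI against control 5 of the 20 fell and 0 rose, beside 2.14% and 7.71% of all genes.

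Fos (NCBI gene 314322) encodes the activity-induced partner of Jun in the AP-1 transcription factor. It stood at 18.4, 11.05 and 12.5 CPM in control and at 4.13, 4.20 and 1.30 CPM in taVNS, so that the highest taVNS library lay under the lowest control library. The log2 fold change was -2.13 ± 0.397 (SE, n = 3 against 3, edgeR adjusted p = 0.387). In PSCI the same gene spread from 4.02 to 19.2 CPM across the control range, and its difference from control was not called (log2 -0.31, adjusted p = 0.779). Fosb, a close relative of Fos, read 13.5, 10.6 and 11.8 CPM in control and 4.41, 5.88 and 4.92 CPM in taVNS. Junb, another AP-1 member, read 61.6, 49.6 and 46.8 CPM in control against 30.2, 27.8 and 25.1 CPM in taVNS, a log2 fold change of -0.93 ± 0.133 (edgeR adjusted p = 0.301). The taVNS libraries of both genes lay close together and wholly under control. In PSCI Fosb was at 2.39, 2.42 and 14.36 CPM and Junb at 32.65, 52.7 and 31.65 CPM. Neither PSCI difference from control was called (edgeR adjusted p = 0.394 and 0.217).

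Egr2 (NCBI gene 114090), a zinc finger transcription factor induced by activity, had a low level in both stroke groups. It was at 9.87, 8.15 and 9.40 CPM in control, 1.19, 2.73 and 2.80 CPM in taVNS and 0.273, 1.66 and 1.31 CPM in PSCI. The fall in PSCI against control passed the test (log2 -3.07, edgeR adjusted p = 0.00799), and the taVNS difference from control was -2.02 ± 0.301 (adjusted p = 0.33). Npas4, a neuron-specific factor that responds to calcium entry, showed the same order, with 11.1, 7.01 and 3.09 CPM in control, 0.771, 2.59 and 0.615 CPM in taVNS and 0.341 to 0.510 CPM in PSCI. Its log2 fold change in taVNS was -2.42 ± 0.612 (edgeR adjusted p = 0.759), and control replicate 3 lay close above taVNS replicate 2. Neither gene differed between taVNS and PSCI past the threshold (log2 1.04 and 1.58, adjusted p = 0.293 and 0.233).

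Egr1, the family member used most widely as an activity marker, was at 38.4, 32.2 and 28.6 CPM in control, 16.1, 19.9 and 12.5 CPM in taVNS and 18.9, 7.14 and 15.8 CPM in PSCI. Nr4a2, an orphan nuclear receptor, was at 68.7, 55.3 and 72.1 CPM in control, 39.7, 42.8 and 28.8 CPM in taVNS and 25.6, 26.8 and 31.4 CPM in PSCI. In both genes the 6 stroke libraries lay under the 3 controls, and both fell in PSCI past the threshold (edgeR adjusted p = 0.0394 and 0.00378), Egr1 not in a fit of the PSCI and control libraries alone (0.081). Arc, a synaptic protein that drives receptor endocytosis, spread more within control (135, 110.3 and 72.4 CPM), and taVNS replicate 2 with 70.5 CPM lay just under the lowest control. In PSCI Arc was at 37.76, 9.88 and 58.87 CPM, all under control, and the difference was not called (edgeR adjusted p = 0.107).

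Not every member was low. Of the 3 members with the highest mean level in the series, only Homer1 had its taVNS libraries all below control. Homer1, a postsynaptic scaffold with an activity-induced short form, was at 122 to 132 CPM in control and 85.1, 112.5 and 85.7 CPM in taVNS (log2 -0.42 ± 0.119, edgeR adjusted p = 0.816). Jun was at 115, 109.9 and 123 CPM in control and 126, 102.6 and 126 CPM in taVNS, and Fosl2 at 76.3 to 113 CPM and 66.9 to 113.9 CPM, so the groups overlapped in both. Vgf, a neuropeptide precursor induced by activity and growth factors that is a member of the growth factor list, was at 102.8, 87.3 and 96.1 CPM in control and 61.3, 42.5 and 54.7 CPM in taVNS (log2 -0.85 ± 0.138, edgeR adjusted p = 0.365). Bdnf, the neurotrophin of the same list, overlapped, with 35.1 to 56.2 CPM in control and 36.5 to 38.9 CPM in taVNS.

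**Figure D2:**
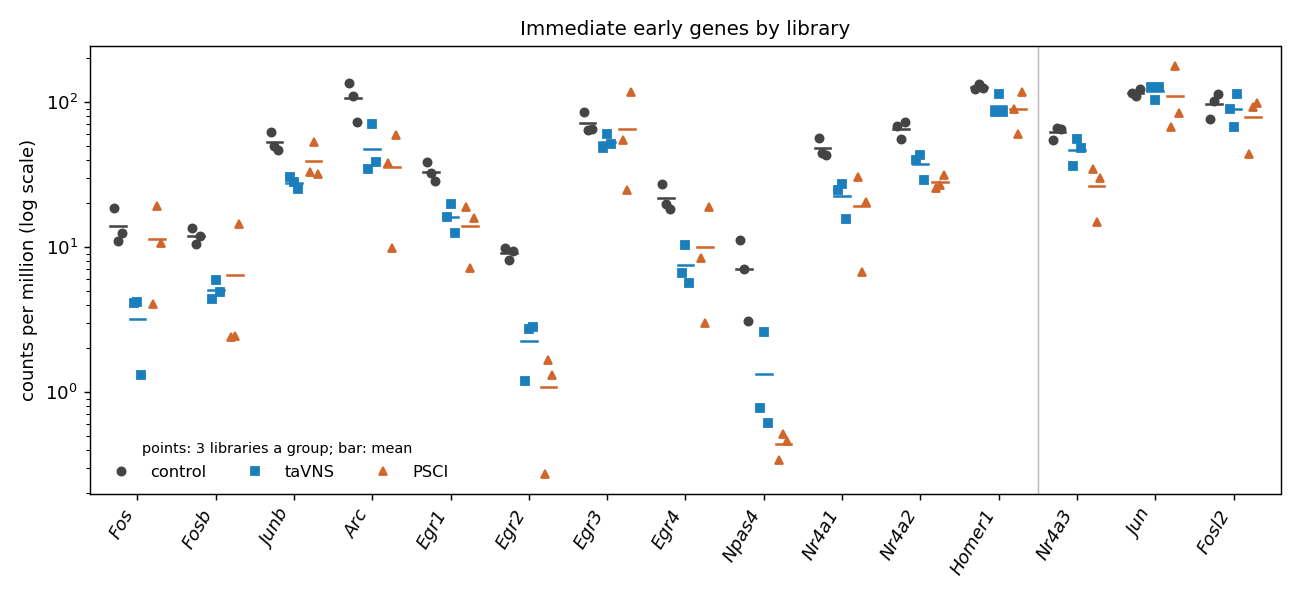
Level in CPM (log axis) of 15 immediate early genes in each control (circles), taVNS (squares) and PSCI (triangles) library, with the mean of 3 as a bar. Left of the grey line are the 12 genes whose taVNS libraries lay all below control, such as Egr2 with 8.15 to 9.87 CPM in control and 1.19 to 2.80 CPM in taVNS; Nr4a3, Jun and Fosl2 to the right overlap.

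Promoter sequence was available from RefSeq for 14 of the 20 immediate early genes. Within the 250 bases before the start site, searched on both strands, the palindromic cyclic AMP response element TGACGTCA was found in 3 of the 14 (Ier2, Dusp1 and Btg2) and in 1.7% of 27456 promoters. The CArG box, the core of the serum response element, was found in 2 of the 14 (Egr1 and Egr2) and in 1.5% of all promoters. The 3 genes with the cyclic AMP element were not among the 12 that separated. The Egr2 promoter is shown because Egr2 was low in both stroke groups; its CArG box, in capitals, starts 83 bases before the start site. A match of letters is a description and not a measured site. The window, from the minus strand at chr20:21054442-21054691 of the RefSeq assembly GRCr8, reads 5′ to 3′:
Egr2: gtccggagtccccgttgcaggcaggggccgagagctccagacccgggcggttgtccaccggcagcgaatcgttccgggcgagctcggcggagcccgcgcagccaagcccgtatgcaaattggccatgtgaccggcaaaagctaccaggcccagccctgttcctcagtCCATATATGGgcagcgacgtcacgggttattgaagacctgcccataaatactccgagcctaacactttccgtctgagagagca

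The genes of antigen presentation and of the interferon response were higher in taVNS. Of 23 members tested, 12 had their taVNS libraries all above control and 0 all below, beside 5.59% of all genes, 10 had an unadjusted p under 0.05, and the median log2 fold change was 0.70 (0.53 without taVNS replicate 3). The lowest value in the list was 0.11, so each of the 23 estimates was above 0. Without taVNS replicate 3, 21 were above 0 and 2 below. DESeq2 called 2, Cd74 and RT1-A2, and edgeR called 0. In PSCI against control 7 of 24 members rose, beside 7.71% of all genes, and 4 with these 2 groups fitted alone.

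Cd74 (NCBI gene 25599), the invariant chain that escorts MHC class II molecules, had the smallest adjusted p of all genes. It was at 3.66, 2.97 and 2.79 CPM in control and at 11.1, 9.58 and 11.5 CPM in taVNS, a log2 fold change of 1.77 ± 0.181 (edgeR adjusted p = 0.128, unadjusted p = 8.84e-06). The taVNS libraries were tightly grouped, at least 9.58 CPM each. The PSCI libraries were not: replicate 1, with 3.07 CPM, lay within the control range, and replicates 2 and 3 were at 27.7 and 35.6 CPM.

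The class II chains themselves followed at low levels. RT1-Da, an alpha chain, was at 0.345 to 0.514 CPM in control and 1.68, 1.33 and 3.62 CPM in taVNS, resting on 19 counts over the 3 controls and 96 over the 3 taVNS libraries. RT1-Ba (0.414 to 0.850 CPM in control, 0.979 to 3.55 CPM in taVNS) and RT1-Db1 (0.414 to 1.32 and 1.4 to 2.32 CPM) were separated by little. RT1 genes are a family of near-identical copies, so the authors' counting may have split reads among them and these levels are uncertain. RT1-A2, a class I heavy chain, was at 28.6, 31.0 and 22.9 CPM in control and 37.4, 49.2 and 46.0 CPM in taVNS (log2 0.68 ± 0.148, edgeR adjusted p = 0.564).

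Genes whose proteins prepare peptides for class I had higher RNA levels in all 3 taVNS libraries. Psmb8, an immunoproteasome subunit, was at 3.93, 2.97 and 3.16 CPM in control and 5.04, 6.71 and 7.24 CPM in taVNS, and Psmb9, its partner subunit, at 1.86 to 2.34 CPM and 3.14 to 3.78 CPM. Tap1, the transporter that carries peptides into the endoplasmic reticulum, was at 4.07, 4.25 and 2.64 CPM in control and 4.48, 7.34 and 9.15 CPM in taVNS, so that taVNS replicate 1 lay just above control. Gbp2, an interferon-induced GTPase, was at 2.97, 3.68 and 2.35 CPM in control, 5.11, 6.22 and 7.45 CPM in taVNS and 12.3, 28.8 and 22.7 CPM in PSCI. Gbp2 was lower in taVNS than in PSCI past the threshold (log2 -1.76, edgeR adjusted p = 0.015), and its difference of 1.06 ± 0.24 from control was not called (adjusted p = 0.582). With taVNS and PSCI fitted alone, 0 members of the interferon and antigen presentation list were lower past the threshold, so Gbp2 lost its call there.

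Some interferon-induced genes were higher in taVNS without a called difference in PSCI. Ifit3, an antiviral effector, was at 0.690, 2.27 and 2.20 CPM in control, 4.62, 2.45 and 3.01 CPM in taVNS and 1.11 to 1.85 CPM in PSCI. Ifit2, of the same family, was at 6.07 to 8.64 CPM in control, 9.30 to 9.97 CPM in taVNS and 5.94 to 7.02 CPM in PSCI. For both, the taVNS libraries were the highest of the 3 groups by a narrow margin, and neither difference from control or from PSCI passed the test (edgeR adjusted p = 0.895 for both against control, 0.216 and 0.0901 against PSCI).

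Of 19 members of this list with a RefSeq promoter, 7 held the letters TTTCNNTTTC of the interferon-stimulated response element on either strand within the 250 bases before the start, against 3.29% of all promoters. Of these 7, Tap1, Gbp2 and Ifit3 were among the 12 separated genes, and Irf7, Ifi27, Oas1a and B2m were not. The 3 are shown so that the element, in capitals, can be read in its place: it starts 121, 31 and 44 bases before the start site. The windows, 5′ to 3′ in GRCr8, are chr20:4668544-4668793 on the minus strand for Tap1, chr2:234005477-234005726 on the plus strand for Gbp2 and chr1:241527076-241527325 on the plus strand for Ifit3:
Tap1: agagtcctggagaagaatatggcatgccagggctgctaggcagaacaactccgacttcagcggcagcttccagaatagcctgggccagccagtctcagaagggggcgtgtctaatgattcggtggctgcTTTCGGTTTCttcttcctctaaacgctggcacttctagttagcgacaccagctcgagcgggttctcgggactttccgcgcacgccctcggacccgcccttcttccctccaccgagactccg
Gbp2: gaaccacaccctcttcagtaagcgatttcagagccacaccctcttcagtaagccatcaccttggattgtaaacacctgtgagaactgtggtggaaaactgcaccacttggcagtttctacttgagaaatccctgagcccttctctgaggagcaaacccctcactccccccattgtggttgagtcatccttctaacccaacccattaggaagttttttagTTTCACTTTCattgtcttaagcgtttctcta
Ifit3: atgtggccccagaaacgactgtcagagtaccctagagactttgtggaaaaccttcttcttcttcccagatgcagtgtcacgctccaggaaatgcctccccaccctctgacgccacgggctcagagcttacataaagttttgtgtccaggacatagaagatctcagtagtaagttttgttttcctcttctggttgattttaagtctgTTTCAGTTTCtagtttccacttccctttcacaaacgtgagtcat

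Complement genes fell into 2 kinds, those near PSCI and those near control. Of 17 members tested, 5 had taVNS libraries all above control (C1qa, C2, C3, C4a and Serping1) and 1 all below (Cd59), with a median log2 fold change of 0.47 (0.25 without taVNS replicate 3). In PSCI 12 of 17 rose, beside 7.71% of all genes. DESeq2 called C2, C3 and C4a, and edgeR none (smallest adjusted p 0.365).

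C3 (NCBI gene 24232), the protein on which all complement pathways converge, was at 10.01, 17.4 and 7.93 CPM in control, 32.9, 78.5 and 62.8 CPM in taVNS and 25.6, 50.6 and 38.2 CPM in PSCI. Its log2 fold change in taVNS was 2.30 ± 0.37 (edgeR adjusted p = 0.365), and the difference between taVNS and PSCI was not called (log2 0.61, adjusted p = 0.398). C4a, which forms the convertase that cleaves C3, was at 11.9, 21.0 and 15.9 CPM in control, 32.6, 68.8 and 54.1 CPM in taVNS and 50.9, 57.5 and 37.2 CPM in PSCI (taVNS against control log2 1.67 ± 0.291, edgeR adjusted p = 0.383). C4a has a near-identical copy, C4b, between which reads may have been split. C2, the partner of C4 in that convertase, was at 10.97, 9.77 and 10.3 CPM in control, 17.9, 26.6 and 33.5 CPM in taVNS and 19.6, 35.0 and 30.6 CPM in PSCI (taVNS against control log2 1.33 ± 0.216, edgeR adjusted p = 0.365). For these 3 genes each of the 6 stroke libraries, stimulated or not, lay above the 3 controls.

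The chains of C1q, which starts the classical pathway and is made by microglia, were closer to control. C1qb was at 35.2, 26.8 and 25.0 CPM in control, 29.0, 31.1 and 35.7 CPM in taVNS and 109.5, 153.6 and 109.5 CPM in PSCI, so control and taVNS overlapped. C1qa was at 38.6, 37.0 and 31.9 CPM in control and 49.0, 42.0 and 58.3 CPM in taVNS, with 97.1 to 138.7 CPM in PSCI. Both were lower in taVNS than in PSCI past the threshold (log2 -1.96 and -1.19, edgeR adjusted p = 0.000757 and 0.00575). Cd59, which blocks the terminal complement pore, was at 156, 128.7 and 136.9 CPM in control, 123, 114 and 124.7 CPM in taVNS and 132 to 153 CPM in PSCI (taVNS against control log2 -0.22 ± 0.0981, adjusted p = 0.895).

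**Figure D3:**
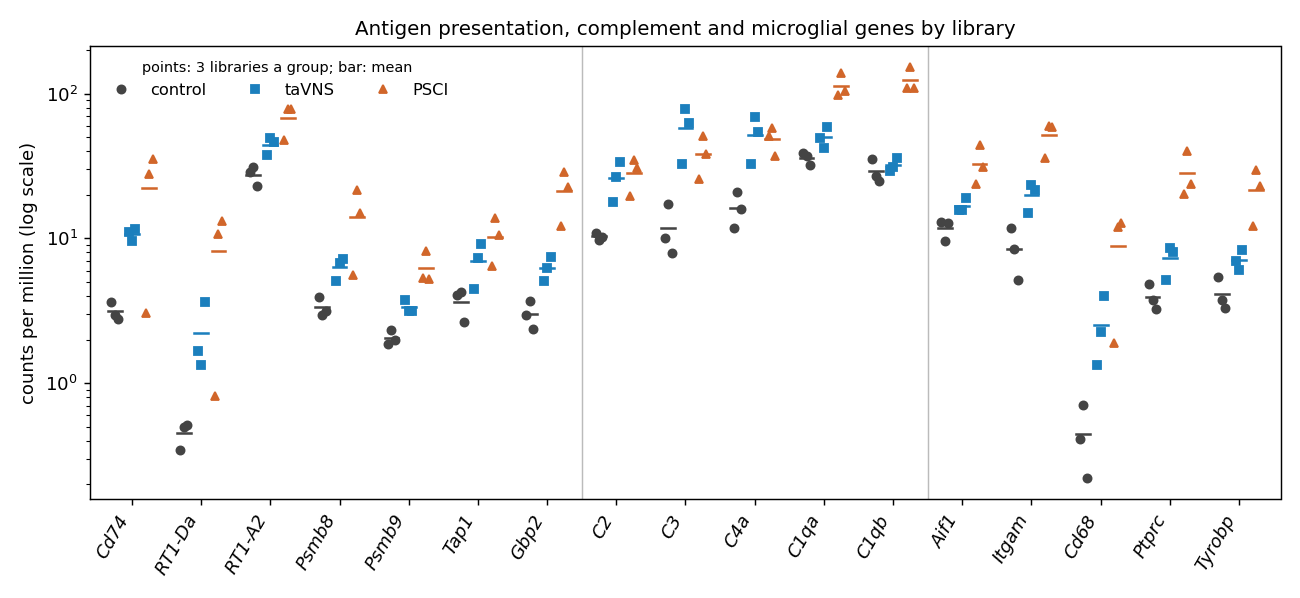
Level in CPM (log axis) of genes of antigen presentation (left), complement (centre) and microglia (right) in each control (circles), taVNS (squares) and PSCI (triangles) library, with the mean of 3 as a bar. The taVNS libraries of C2, C3 and C4a lie with PSCI, whereas those of C1qb, 29.0 to 35.7 CPM, lie within or near the control range of 25.0 to 35.2 CPM.

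Microglial markers were moderately higher. Of 15 tested, 8 had taVNS libraries all above control and 0 all below, 10 had an unadjusted p under 0.05 and the median log2 fold change was 0.49 (0.40 without taVNS replicate 3). In PSCI 9 of 15 rose, beside 7.71% of all genes, with a median of 1.17. The summed level of the list was 565, 452 and 457 CPM in control and 587, 574 and 689 CPM in taVNS, separated by a small step. Of 15 genes of T cells and granulocytes 2 had enough counts to be tested, and the list summed to 5.38 to 11.6 CPM in control and 8.74 to 18.8 CPM in taVNS. In each of these libraries but control replicate 2, most of that sum was Cd4, which rat macrophages also carry. Cd4 was at 8.63, 2.12 and 4.26 CPM in control and 8.48, 15.39 and 4.78 CPM in taVNS, with overlap.

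Itgam, the CD11b chain of the complement receptor on microglia, was at 11.7, 8.50 and 5.14 CPM in control, 15.0, 23.4 and 21.5 CPM in taVNS and 36.1, 60.03 and 58.8 CPM in PSCI. Its log2 fold change of 1.23 ± 0.29 was not called by edgeR (adjusted p = 0.636), and it was lower in taVNS than in PSCI (log2 -1.37, adjusted p = 0.0329). The 3 groups stood in order, with taVNS between the other two. Aif1, the actin-binding protein IBA1 used to stain microglia, was at 13.0, 9.63 and 12.9 CPM in control, 15.6, 15.6 and 18.9 CPM in taVNS and 23.7 to 43.8 CPM in PSCI. Ptprc, the leukocyte phosphatase CD45, was at 3.23 to 4.83 CPM in control, 5.19 to 8.60 CPM in taVNS and 20.4 to 40.4 CPM in PSCI. Both were lower in taVNS than in PSCI past the threshold (edgeR adjusted p = 0.0366 and 0.00895). These calls come from the fit of 9 libraries, where 4 of 15 microglial members were lower and 1 higher in taVNS than in PSCI. With these 2 groups fitted alone, 1 of 15 was lower and 0 higher, so most of the calls were lost.

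Microglial members with the highest mean level overlapped. Ctss, a lysosomal protease, was at 193, 136.8 and 170.1 CPM in control and 198, 178.6 and 234 CPM in taVNS. Csf1r, the receptor that keeps microglia alive, was at 97.4, 90.1 and 69.8 CPM in control and 96.3, 117 and 129 CPM in taVNS (log2 0.41 ± 0.151, edgeR adjusted p = 0.895). In both genes a control library lay above the lowest taVNS library. Ctss was also not called in PSCI (edgeR adjusted p = 0.819), whereas Csf1r rose there (adjusted p = 0.00853).

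Genes of phagocytic microglia, a state seen around damaged tissue, lay between control and PSCI in a few members. Of 13 tested, 5 had taVNS libraries all above control (Spp1, Lgals3, Gpnmb, Itgax and Ctsz), with a median log2 fold change of 0.15 (0.04 without taVNS replicate 3). In PSCI 12 of 15 rose and 1 fell, beside 7.71% and 2.14% of all genes. Against PSCI 12 were lower and 1 higher in taVNS, beside 4.91% and 0.842% of all genes. With these 2 groups fitted alone, 3 were lower and 1 higher. Spp1, the secreted phosphoprotein osteopontin, was at 0.966, 0.354 and 0.441 CPM in control, 2.38, 9.86 and 15.7 CPM in taVNS and 17.0, 496 and 267 CPM in PSCI. Its log2 fold change of 3.96 ± 0.724 against control was not called by edgeR (adjusted p = 0.387) and was called by DESeq2 (adjusted p = 7.11e-07). It rested on 25 counts over the controls. Lgals3, a galactose-binding lectin of phagocytes, was at 0.0735 to 0.779 CPM in control, 1.33, 2.10 and 5.33 CPM in taVNS and 16.0 to 143 CPM in PSCI. Gpnmb, a glycoprotein of lysosome-rich phagocytes, was at 8.42, 6.66 and 7.64 CPM in control, 9.88, 18.9 and 22.7 CPM in taVNS and 54.7 to 335 CPM in PSCI. All 3 were lower in taVNS than in PSCI past the threshold (edgeR adjusted p = 0.0346, 0.0151 and 0.0121), though in a fit of these 2 groups alone Spp1 and Lgals3 were not (0.105 and 0.0604). In all 3 taVNS replicate 3 was the highest of its group. With that library left out, the log2 fold changes against control were 3.35, 1.99 and 0.92.

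The 3 members of this list with the highest mean level overlapped control. Apoe, the lipid carrier of the brain, was at 3107, 2672 and 2376.5 CPM in control, 2822.5, 2361 and 2574 CPM in taVNS and 1454 to 1596 CPM in PSCI, where it fell (log2 -0.85, edgeR adjusted p = 0.00597). The lysosomal proteases Ctsb (526 to 571.5 CPM in control, 534 to 591 CPM in taVNS) and Ctsd (209 to 241 and 210.2 to 247 CPM) had log2 fold changes of 0.06 and 0.05 against control. Both rose in PSCI (edgeR adjusted p = 0.0232 and 0.0147), Ctsb not in a fit of the PSCI and control libraries alone (0.0716).

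Astrocyte reactivity was near control for its chief marker and above control for some minor ones. Gfap (NCBI gene 24387), the intermediate filament of astrocytes, was at 1196, 1011 and 631 CPM in control, 854, 1379.8 and 896 CPM in taVNS and 4095, 7672 and 6553 CPM in PSCI. Control and taVNS overlapped, with a log2 fold change of 0.14 ± 0.26 (edgeR adjusted p = 0.951), whereas taVNS was lower than PSCI by 2.55 on the log2 scale (adjusted p = 0.0045). Of 17 tested members of the list, 5 had taVNS libraries all above control (Vim, Serping1, Aspg, Tnc and Ptx3), 0 all below, and the median log2 fold change was 0.38 (0.35 without taVNS replicate 3). In RPKM 9 were all above. In PSCI 13 of 19 rose, beside 7.71% of all genes. Against PSCI 13 were lower in taVNS, beside 4.91% of all genes. With these 2 groups fitted alone 5 were lower, beside 225 of 14710 genes.

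Vim, the other filament protein of reactive astrocytes, was at 28.9, 26.5 and 21.3 CPM in control, 31.4, 41.4 and 94.3 CPM in taVNS and 488, 1290.4 and 801 CPM in PSCI. Replicate 3, the library with raised meningeal markers, was the highest taVNS library, and Vim is also made by fibroblasts. The log2 fold change against control of 1.12 ± 0.372 (edgeR adjusted p = 0.892) was 0.51 without that library. Serping1, the C1 inhibitor, showed a like pattern, with 2.13 to 3.82 CPM in control and 3.85, 8.11 and 14.1 CPM in taVNS. Aspg, an asparaginase raised in reactive astrocytes, did not depend on that library: it was at 0.414, 0.637 and 0.294 CPM in control and 1.47, 2.38 and 2.19 CPM in taVNS (log2 2.14 ± 0.39, edgeR adjusted p = 0.387), against 14.0 to 29.9 CPM in PSCI. Cd44, the hyaluronan receptor, was at 16.8, 12.9 and 10.2 CPM in control, 16.5, 18.3 and 17.9 CPM in taVNS and 27.9 to 153.6 CPM in PSCI. S1pr3, a sphingosine phosphate receptor, was at 5.58 to 7.93 CPM in control, 7.85 to 11.4 CPM in taVNS and 44.8 to 66.7 CPM in PSCI. Serpina3n, a secreted protease inhibitor, was at 1.63 to 1.91 CPM in control and 1.75, 3.64 and 0.410 CPM in taVNS, with no stable direction (log2 0.10 ± 0.601, and below 0 under 6 of its alternatives).

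In genes of cell division no difference from control was detected. All 18 members rose in PSCI and all 18 were lower in taVNS than in PSCI past the threshold, beside 7.71% and 4.91% of all genes. Among them Ccnb2, E2f8 and Pimreg were too low in the taVNS and control libraries to be tested there. They passed the filter through their PSCI libraries, so their calls are largely set by it. With taVNS and PSCI fitted alone, 12 of the 18 passed; Pcna (adjusted p = 0.0701), Tyms (0.0731) and E2f8 (0.056) were among those that did not. Against control, 15 could be tested, of which 2 were all above (Mcm5 and Rrm2) and 0 all below, with a median log2 fold change of 0.02 (0.05 without taVNS replicate 3). The summed level was 94.1, 91.7 and 83.3 CPM in control and 90.4, 86.4 and 97.5 CPM in taVNS. Top2a, the topoisomerase of dividing cells, was at 1.79, 1.56 and 2.13 CPM in control, 1.89, 1.89 and 2.60 CPM in taVNS and 30.2, 104.4 and 46.9 CPM in PSCI. The 3 members with the highest mean level differed little from control relative to their errors. Mki67, the Ki-67 antigen, differed by log2 0.16 ± 0.18, Pcna, the sliding clamp of replication, by -0.14 ± 0.106, and Tyms, thymidylate synthase, by -0.02 ± 0.149 (edgeR adjusted p = 0.934, 0.899 and 0.992). In PSCI against control the same genes had log2 fold changes of 2.60, 0.99 and 0.99, all called in the fit of 9 libraries, Pcna not in a fit of those 6 libraries alone (adjusted p = 0.059).

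Of 13 tested genes of cytokines and the NF-kB pathway, 3 had taVNS libraries all above control (Nfkb2, Nlrp3 and Socs3) and 0 all below, beside 5.59% and 5.49% of all genes. At an unadjusted p under 0.05, 2 were higher, beside 3% of all genes, and the median log2 fold change was 0.31, or 0.12 without taVNS replicate 3; 15 of its 17 members measured there were raised in PSCI. Nfkb1, a DNA-binding subunit of NF-kB, was at 21.0, 24.5 and 19.5 CPM in control and 21.2, 26.1 and 24.7 CPM in taVNS. Rela, its transactivating partner, was at 18.4 to 21.1 CPM and 19.1 to 20.7 CPM, and Nfkbia, the inhibitor that holds both in the cytoplasm, at 12.8 to 22.0 CPM and 10.7 to 18.2 CPM. The log2 fold changes were 0.15, 0.05 and -0.34 against control, and 2.18, 1.85 and 2.11 in PSCI against control by counts. For these 3 genes the deposited RPKM gave 1.44, 1.53 and 1.06 for PSCI, so the size of their PSCI value is uncertain, while counts and RPKM differed by at most 0.05 for taVNS against control. Across 13122 genes examined, counts and RPKM differed by more than 0.25 on the log2 scale for 43 in taVNS against control and 94 in PSCI against control.

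Apoptosis and autophagy genes, of which 15 of 22 rose and 1 fell in PSCI by counts, had a median log2 fold change of -0.08 in taVNS against control (-0.02 without taVNS replicate 3). Of 21 tested, 1 was all above (Casp8) and 4 all below (Bad, Bcl2l1, Map1lc3a and Mcl1). Casp8, the initiator caspase of death receptors, was at 0.690, 1.2 and 0.735 CPM in control, 1.68, 2.03 and 1.98 CPM in taVNS and 6.48 to 9.69 CPM in PSCI (taVNS against control log2 1.11 ± 0.322, edgeR adjusted p = 0.816).

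The genes that separated PSCI from control most widely were then followed into the stimulated rats. They were chosen from the PSCI and control libraries, and the same controls enter both sides, so the levels are a description. Of the 12 largest rises, Spp1 and Lgals3 were described above, and 10 were too low in the 6 libraries to be tested. Cd14, the lipopolysaccharide co-receptor of macrophages, had 14 counts over the 3 controls and 40 over the 3 taVNS libraries, at 0.276 to 0.441 CPM and 0.561 to 1.26 CPM, with 12.5 to 28.6 CPM in PSCI. Cd8a, the T cell co-receptor chain, had 0 and 20 counts, Igsf7 had 1 and 17, Tlr8, a receptor for RNA, had 3 and 15, and Bcl3, a nuclear NF-kB cofactor, had 3 and 14. Lbp, which carries lipopolysaccharide, had 1 and 11, Pimreg, a mitotic protein, 7 and 17, E2f8, a repressor of the cell cycle, 0 and 6, and Atp8b4, a lipid flippase, 1 and 6. Ccl2, the chemokine that draws monocytes, had 6 counts in control and 1 in taVNS, against 0.886, 20.6 and 8.55 CPM in PSCI. In 9 of these 10 genes the taVNS count was above the control count, and in each of the 10 the mean level was far under that of PSCI. Choosing genes by a large rise over these controls favours low control and high PSCI values. Both tallies are largely set by that choice, and no conclusion is drawn from them.

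Of the 12 largest falls in PSCI, Egr2 and Npas4 were described above and were low in taVNS too. Apoc1, a small apolipoprotein, also lay under control in all 3 taVNS libraries, with 10.3, 5.88 and 8.30 CPM in control, 5.61, 2.10 and 4.30 CPM in taVNS and 0.828 to 2.32 CPM in PSCI (taVNS against control log2 -1.03 ± 0.354, edgeR adjusted p = 0.895). Tlcd1, a membrane lipid protein, was at 11.7 to 12.8 CPM in control and 8.81 to 10.6 CPM in taVNS, and Agt, angiotensinogen, which astrocytes make, at 199.5 to 212 CPM and 155 to 197 CPM. These 2 were also wholly under control by a small step (log2 -0.34 and -0.23). Htra4, a serine protease, spread from 0.629 to 6.42 CPM in taVNS across the control range of 5.11 to 14.1 CPM. The other 6 overlapped with control at log2 fold changes of -0.36 to 0.27: Piezo2 (0.04), a mechanically gated channel, Cldn1 (-0.25), a tight junction protein, Krt2 (0.16), a keratin, tGap1 (0.27), Efcab3 (-0.36) and Sqstm1 (-0.08), the autophagy receptor p62. Sqstm1 was at 574, 478 and 529 CPM in control, 504, 507 and 485 CPM in taVNS and 75.8 to 125 CPM in PSCI, where its log2 ratio to control was -2.47 in counts and -0.74 in RPKM.

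**Figure D4:**
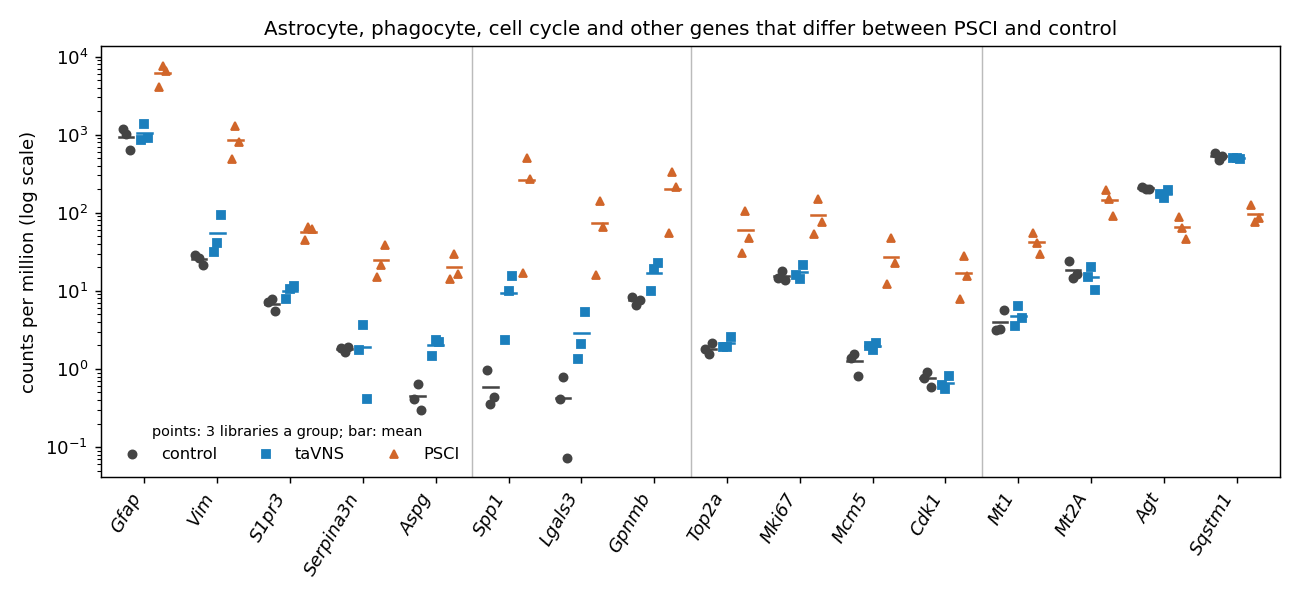
Level in CPM (log axis) of astrocyte, phagocyte, cell cycle and other genes that differed between PSCI and control, in each control (circles), taVNS (squares) and PSCI (triangles) library, with the mean of 3 as a bar. Gfap, Top2a and Mki67 overlap between taVNS and control, while Aspg and Spp1 lie between control and PSCI.

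Haemoglobin RNA was higher in the stimulated rats. Of 7 red blood cell genes tested, 5 had taVNS libraries all above control and 0 all below, with a median log2 fold change of 1.10 (1.28 without taVNS replicate 3). In PSCI the list summed to 38.5, 48.8 and 111.7 CPM, and 0 were called against control, with a median of -1.37. Against PSCI 4 of 7 rose in taVNS, beside 0.842% of all genes, and 0 with these 2 groups fitted alone. Alas2, the erythroid enzyme of haem synthesis, was at 0.690, 0.637 and 0.588 CPM in control and 2.59, 1.33 and 2.19 CPM in taVNS (log2 1.66 ± 0.357, edgeR adjusted p = 0.564). Hbb, a beta globin, was at 54.4, 49.0 and 54.3 CPM in control, 183, 86.5 and 69.4 CPM in taVNS and 13.0, 19.4 and 42.9 CPM in PSCI, so taVNS replicate 1 was the highest library. The globin genes Hba-a1, Hba-a2, Hbb and Hbb-bs are near-identical copies, among which reads may have been split. The summed level of the list was 121 to 135 CPM in control and 444, 190.0 and 198.5 CPM in taVNS, and how much blood remained in the tissue was not measured.

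**Figure D5:**
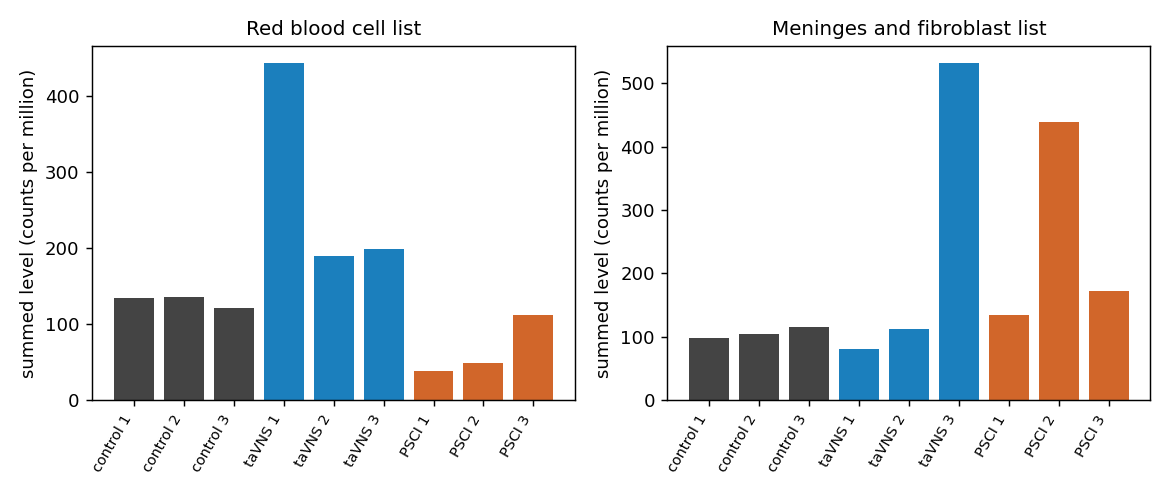
Summed level in CPM of the red blood cell list (left) and of the meninges and fibroblast list (right), with 1 bar for each library. The 3 taVNS libraries exceed the 3 controls for red blood cells, and taVNS 3 alone of the 6 stands out for meninges, with 532 CPM.

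Genes induced by glucocorticoid hormones were lower in part. Of 15 tested, 5 had taVNS libraries all below control (Sgk1, Tsc22d3, Ddit4, Pdk4 and Cdkn1a), 0 were all above and the median log2 fold change was -0.29 (-0.22 without taVNS replicate 3). Sgk1 (NCBI gene 29517), a kinase of ion transport and a well-known target of the glucocorticoid receptor, was at 121, 140.7 and 145.8 CPM in control, 74.8, 61.1 and 71.9 CPM in taVNS and 185, 95.1 and 144.5 CPM in PSCI. Its log2 fold change against control was -0.97 ± 0.109 (edgeR adjusted p = 0.13), and it was lower in taVNS than in PSCI past the threshold (log2 -1.03, adjusted p = 0.0258), though not with these 2 groups fitted alone (0.0871). Tsc22d3, the leucine zipper GILZ, was at 87.4, 109.8 and 111 CPM in control, 80.5, 68.9 and 67.8 CPM in taVNS and 41.4 to 68.1 CPM in PSCI. Ddit4, an inhibitor of mTOR signalling, was at 78.1 to 88.2 CPM in control and 56.0 to 63.9 CPM in taVNS, and Pdk4, which restrains pyruvate oxidation, at 2.55 to 4.32 CPM and 1.4 to 1.78 CPM. Sgk1 was unlike Tsc22d3 in that its PSCI libraries surrounded the control values.

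Among neuronal lists, inhibitory interneurons had 3 of 15 members lower at an unadjusted p under 0.05 (Npy, Sst and Vip), beside 2.32% of all genes, with 1 all below (Npy). None of the 3 passed the adjusted test (edgeR adjusted p = 0.895 for each). Of 12 excitatory neuron genes and of 9 dentate granule cell genes 0 were separated, and of 9 CA pyramidal cell genes 1 was all above (Cacng5). Of 21 synaptic vesicle and postsynaptic genes, 1 was all below (Vamp2) and 0 all above; of 23 glutamate and GABA-A receptor genes and of 12 genes of acetylcholine signalling, 0 were separated. Their median log2 fold changes were 0, -0.04 and 0. Of 21 monoamine genes, 2 were all above, among them the adrenergic receptor Adra1a. Myelin genes (14) and endothelial and pericyte genes (14) had 0 separated members, the latter with a median of 0.36 (0.24 without taVNS replicate 3). Of 14 homeostatic astrocyte genes, 3 were all below (Aldoc, Gjb6 and Glul), and of 12 ependymal genes, 3 were all above (Cfap126, Foxj1 and Hydin). Foxj1, the master factor of motile cilia, was at 6.14, 5.60 and 4.11 CPM in control, 7.57, 6.92 and 7.86 CPM in taVNS and 21.6 to 28.6 CPM in PSCI.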

How the data were processed

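Gene counts and RPKM of 9 rat hippocampal libraries were used, 1 library per sample and 3 samples per group; the extraction text speaks of tissue from each animal, so replicates were taken as separate rats. The authors deposited an expected count per gene, not scaled, and RPKM values, which the authors scaled for length and depth. Per the submitters' processing notes HISAT2 2.0.4, RSEM 1.2.8 and the build mRatBN7.2 were used; their roles, the annotation and any filter are not given in the sources used here. The expected counts were rounded, and genes were filtered with filterByExpr of edgeR 4.0.16 (R 4.3.3). After TMM scaling (trimmed mean of M values), its quasi-likelihood test was run on the 6 taVNS and control libraries alone (14451 genes, Benjamini-Hochberg adjusted p under 0.05, no fold limit). PSCI values came from a fit of all 9 libraries. RPKM was tested with limma 3.58.1 on log2(RPKM + 0.1), and DESeq2 1.42.0 was an alternative. SE is the log2 fold change divided by the root of the F statistic. Scripts for the tests were checked on simulated data.

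Genes in the text are the 12 largest rises and 12 largest falls past the threshold that separate the groups with a mean of at least 1 CPM (none for taVNS against control, 24 for PSCI against control), any called list member (none), and the 3 members with the highest mean level of 7 lists (1 of these is not reported here); all others were picked after their values were seen. The 37 lists named 588 distinct genes; 584 were in the tables and 526 were tested. The comparison, the members and the lists were chosen with earlier results of these data known. Promoters are RefSeq's, of assembly GRCr8, matched by NCBI gene identifier, and are not on the authors' build.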

Additional observations from a re-analysis of the deposited data

How the results depend on the processing

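The count of 0 genes past the threshold held with limma-voom, other scalings, other filters, all 9 libraries, RPKM at 3 settings, a 1.5-fold limit and with genes whose counts and RPKM disagree left out. DESeq2 called 42 (23 higher, 19 lower). Leaving out single replicates gave 0 to 2 called, 0 to 2 higher and 0 to 1 lower: 2 without control replicate 1 and 1 without taVNS replicate 3. Between 544 and 988 genes had an unadjusted p under 0.05 with 1 replicate left out. With the replicate block, 1 gene was called, 1 higher (C4a); same-numbered libraries deviated with correlations of -0.036, 0.062 and 0.255, so they were taken to share only a number, and control replicate 1 correlated best with taVNS replicate 2 (0.264). Libraries that separate stay separated when 1 is dropped, so the counts that follow cannot fall and show no stability: with 1 replicate left out, the members all below control numbered 12 to 16 for immediate early genes and 5 to 9 for glucocorticoid genes. Those all above numbered 12 to 18 for interferon and antigen presentation, 8 to 12 for microglia, 5 to 9 for complement, 5 to 10 for reactive astrocytes, 2 to 4 for cell division and 5 to 7 for red blood cells; over all genes 1318 to 1745 were above and 1341 to 1885 below. In RPKM, an alternative added after the data were seen, 9 reactive astrocyte members were above, and over all genes 1018 were above and 505 below. Of 1851 log2 fold changes of 98 genes under alternatives, 24 in 11 genes changed sign, all of genes with an adjusted p of at least 0.741 throughout. These gave -0.11 to 0.35 for Gfap, -0.16 to 0.04 for Apoe, -0.03 to 0.28 for Mki67, -0.13 to 0.08 for Tyms, -0.02 to 0.12 for Jun, -0.31 to 0.07 for Fosl2, -0.08 to 0.21 for Piezo2, -0.53 to 0.12 for Cldn1, -0.69 to 0.03 for Efcab3, 0 to 0.59 for Mt1 and -0.74 to 0.58 for Serpina3n with a replicate left out. Serpina3n was also below 0 with limma-voom (-0.37), the replicate block (-0.15) and RPKM (-0.26, -0.04 and -0.26). In fits of each pair of groups alone, 42 genes of the naming rule were compared in PSCI against control and 43 in taVNS against PSCI. These include genes that were not called in the fit of 9 libraries and so had no call to lose. The call was lost for 6 genes in the first and 12 in the second, among them Spp1 (edgeR adjusted p = 0.105) and Lgals3 (0.0604) in the second. The cause of these changes was not tested. Depth limits genes under about 0.2 CPM.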

Other observations

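The enzymes of cholesterol synthesis, a list put together after the values had been seen, were lower in taVNS than in control. Of 23 genes, 13 had their taVNS libraries all below the 3 controls and 0 all above, beside 5.49% and 5.59% of all genes, and the median log2 fold change was -0.30. Hmgcs1, which makes HMG-CoA, was at 528, 408 and 448 CPM in control, 306, 327 and 274 CPM in taVNS and 291, 272 and 378 CPM in PSCI (log2 -0.61 ± 0.123, edgeR adjusted p = 0.471; DESeq2 adjusted p = 0.00216). Its 3 taVNS libraries lay wholly under control and within the range of the PSCI libraries. Insig1, the sterol sensor that retains the SREBP complex, was at 112.8, 87.0 and 103 CPM in control and 69.2, 76.5 and 68.5 CPM in taVNS, and Idi1, an isomerase of the pathway, at 35.6 to 48.7 CPM and 26.2 to 30.4 CPM. In PSCI 3 of the 23 fell, beside 2.14% of all genes.

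Among clock genes, chosen here after their values were seen, Per3, a period protein, was at 29.7, 41.8 and 30.1 CPM in control and 52.5, 47.9 and 48.6 CPM in taVNS. Dbp, an output gene of the clock with a strong daily rhythm, was at 71.8, 78.0 and 69.1 CPM in control and 108.8, 80.6 and 96.0 CPM in taVNS, and Cry1, a repressor of the clock, at 12.3 to 16.0 CPM and 11.3 to 12.2 CPM. Of 16 clock genes tested these were the 3 separated, 2 above and 1 below, beside 5.59% and 5.49% of all genes. So few members were separated that no difference of the clock list is read from them. The labels used here give no time of day of sampling. In the meningeal list Col1a2, a collagen chain of fibroblasts, was at 5.51 to 6.30 CPM in control and 5.26, 9.65 and 73.8 CPM in taVNS, and Igf2, a growth factor made by meninges, at 14.3 to 19.8 CPM and 16.0, 23.8 and 149 CPM, with the highest value of both in replicate 3.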
